A study of Mus musculus with 2 samples.

Results

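The sterol group comprised 8 genes of the cholesterol synthesis route and of its feedback control, Hmgcs1, Idi1, Fdps, Sqle, Lss, Ebp, Dhcr7 and Insig1. They were taken by symbol from the 31053 genes of the deposited matrices, and all 8 were present and counted in both libraries. Together they held 15501 UMIs, or distinct captured transcripts, in the oil-labelled library and 10881 in the tamoxifen-labelled library. Levels are given in CPM, the UMIs of a gene scaled to the same total in each library.

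Each library held spleen cells of 3 pooled mice, sorted as GFP+ Lin- c-Kit+ 3 days after the first injection of oil or tamoxifen into mice that had become sick. The sorted cells express AE9a, a shortened form of the AML1-ETO fusion protein that drives acute myeloid leukemia, and carry floxed Usp18 and UBCER-Cre, a recombinase expressed under a ubiquitin promoter and switched on by tamoxifen. The labels name the genotype Usp18f/f in the oil group and Usp18delta/delta in the tamoxifen group, whereas the treatment protocol describes Usp18+/f cells and a heterozygous loss, so groups are named here by injection. The labels give no age for the mice and no map from cells to mice, and no group without Cre was included, so tamoxifen itself and the loss of Usp18 cannot be told apart. Each group was 1 library, no test across samples was possible, and every interval is a 95% interval for counting error only. Usp18, the gene targeted, had 371 UMIs or 5.62 CPM in the oil-labelled library and 933 UMIs or 15.4 CPM in the tamoxifen-labelled library, a log2 ratio of 1.45 (1.28 to 1.63). This direction is opposite to a loss of the transcript, but reads from the 3′ end cannot tell whether an exon further upstream is missing. Usp18 is also on the list of interferon-stimulated genes read below, of which 11 of 12 measured were higher in the tamoxifen-labelled library. Whether its level follows theirs was not tested.

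Cells make cholesterol from acetyl-CoA through mevalonate, farnesyl diphosphate, squalene and lanosterol, and dividing cells need it for new membranes. When sterols in the endoplasmic reticulum are low, SCAP carries SREBP2 to the Golgi, where proteases release the part that switches on genes of sterol synthesis and uptake, and when sterols are high INSIG proteins hold SCAP back. Tamoxifen is known to bind the sterol isomerase EBP and the reductase DHCR7 at what is called the antiestrogen binding site, besides its use here to activate Cre.

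SREBP2 acts at sterol regulatory elements, usually beside CCAAT boxes bound by NF-Y. The upstream promoter sequences of 3 genes are shown because they hold the motif classes found in the group. They come from RefSeq on GRCm38.p6, run 5′ to 3′ on the strand of the gene, and carry in capitals each match to the sterol regulatory element core TCACNCCAC, to the E-box CACGTG or to the NF-Y box CCAAT, which reads ATTGG on the other strand.
Hmgcs1, chr13:119690101-119690350, plus strand: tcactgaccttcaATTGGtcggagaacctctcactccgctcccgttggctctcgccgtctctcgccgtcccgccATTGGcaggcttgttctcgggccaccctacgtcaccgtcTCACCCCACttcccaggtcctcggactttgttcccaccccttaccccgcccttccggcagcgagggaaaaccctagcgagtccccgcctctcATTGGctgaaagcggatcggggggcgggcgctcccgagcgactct
Insig1, chr5:28071162-28071362, plus strand: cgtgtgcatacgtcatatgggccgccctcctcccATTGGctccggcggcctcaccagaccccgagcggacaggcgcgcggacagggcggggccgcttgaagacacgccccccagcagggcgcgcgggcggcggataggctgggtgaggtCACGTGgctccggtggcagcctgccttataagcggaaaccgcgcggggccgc
Ebp, chrX:8193513-8193762, minus strand: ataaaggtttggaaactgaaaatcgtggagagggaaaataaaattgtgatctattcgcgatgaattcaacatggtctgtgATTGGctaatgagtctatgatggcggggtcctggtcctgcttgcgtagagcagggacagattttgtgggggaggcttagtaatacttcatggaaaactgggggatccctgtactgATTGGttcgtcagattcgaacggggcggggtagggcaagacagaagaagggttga
The Hmgcs1 sequence held 1 sterol regulatory element core and 3 NF-Y boxes, the Insig1 sequence 1 E-box and 1 NF-Y box, and the Ebp sequence 2 NF-Y boxes. RefSeq promoters were at hand for 6 of the 8 genes, all but Fdps and Sqle. In the 250 bases before a start, the NF-Y box was found for 6 of these 6 genes, counting any of the 3 starts of Dhcr7, against 33.8% of 32851 promoters. The GC box GGGCGG, a motif bound by SP1, was also found for 6 of 6, against 32.7%. The sterol regulatory element core was found for 1 of 6, against 1.05%, and the E-box for 2, Dhcr7 and Insig1, against 6.02%. All 4 motifs were searched on both strands, a match is only a match of letters, and no match says only that these letters are absent from the window.

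All 8 genes were lower in the tamoxifen-labelled library, except that Lss turned to a log2 ratio of 0.0078 when mitochondrial and ribosomal protein genes were left out of the totals and to 0.071 when every cell had the same weight, and that Lss (0.13) and Dhcr7 (0.28) turned under a stricter cell filter that left 673 and 771 cells. For 7 of the 8 the counting interval of the log2 ratio lay below 0, and for 5, without Dhcr7 and Insig1, under each of 3 other scalings. The share of all genes with an interval below 0 was not counted, so these counts have no background to be read against. Summed over the 8 genes, the level was 235 CPM (231 to 238) in the oil-labelled library and 179 CPM (176 to 183) in the tamoxifen-labelled library, a log2 ratio of -0.39 (-0.42 to -0.35) or 0.764-fold. The 8 ratios had a median of -0.32. Over the 10527 genes that reached 100 UMIs when both libraries are added up, called measured below, the median was -0.063 and 38.3% of genes were higher in the tamoxifen-labelled library.

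A log2 ratio at least 0.32 below 0, the limit of size used here, was reached by 4 of the 8 genes, Hmgcs1, Fdps, Sqle and Ebp, and by 10.7% of all measured genes (1122). A log2 ratio at least 0.32 above 0 was reached by 0 of the 8 and by 6.79% of all measured genes (715). These counts depended on the scaling, since the 3 other scalings moved every log2 ratio upward by 0.063 to 0.080. With TMM, which scales on genes taken as typical, only Fdps was past the lower limit, with Ebp just inside it at -0.32, and all genes split into 1001 higher and 657 lower. With median-ratio scaling, or with totals that leave out mitochondrial and ribosomal protein genes, the count was likewise 1. The summed level stayed lower under 10 of 10 alternatives, between -0.44 and -0.31. The 3 other scalings could not turn its sign, because their shift is smaller than its ratio. All 10 reuse cells of the same libraries and are no replication.

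**Figure D1:**
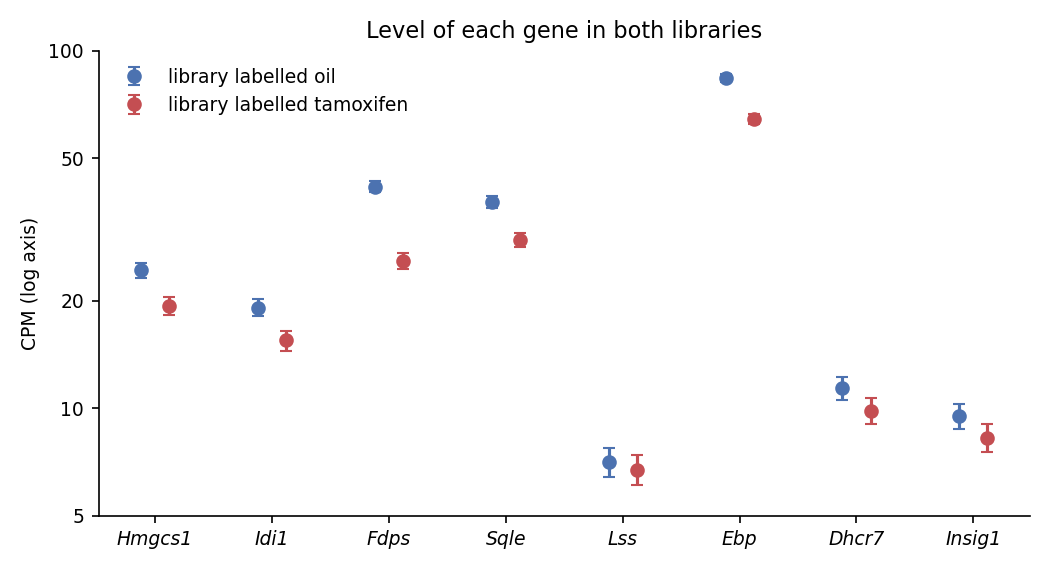
Level of each of the 8 genes in CPM on a log axis, in the oil-labelled library (blue) and the tamoxifen-labelled library (red). Points are library values and bars are exact 95% Poisson intervals, which cover counting error only; the intervals of both libraries overlap for Lss, Dhcr7 and Insig1 and lie apart for the other 5 genes.

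Entry into the pathway was represented by Hmgcs1 (chromosome 13, 119690379 to 119708260), which makes HMG-CoA in the cytosol. Hmgcs1 had 1606 UMIs or 24.3 CPM in the oil-labelled library and 1172 UMIs or 19.3 CPM in the tamoxifen-labelled library. Its log2 ratio was -0.33 (-0.44 to -0.22), and 10.0% of measured genes had a ratio as low or lower. An antisense gene that overlaps it, Gm48342, held 6 and 3 UMIs.

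The isoprenoid steps were represented by Idi1 and Fdps. Idi1 (chromosome 13, 8885501 to 8892451) converts isopentenyl diphosphate to its isomer, and Fdps (chromosome 3, 89093588 to 89101959) joins both into farnesyl diphosphate, the last intermediate shared by sterols, ubiquinone and prenylated proteins. Idi1 had 1261 UMIs or 19.1 CPM in the oil-labelled library and 938 UMIs or 15.5 CPM in the tamoxifen-labelled library, a log2 ratio of -0.30 (-0.43 to -0.18). Its ratio was -0.20 when both libraries were given the same shares of G1, S and G2M cells and -0.61 with the stricter cell filter. Fdps had 2752 UMIs or 41.7 CPM in the oil-labelled library and 1567 UMIs or 25.8 CPM in the tamoxifen-labelled library. Its log2 ratio of -0.69 (-0.78 to -0.60) was the lowest of the 8, its interval did not meet that of any other member, and 0.722% of measured genes were as low or lower. A protein-coding gene that overlaps Fdps on the same strand, Gm43738, held 1 and 1 UMIs. Reads that could fall on both genes were not examined.

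Sqle and Lss act on squalene. Sqle (chromosome 15, 59315077 to 59331192), the epoxidase of the first oxygen-dependent step, had 2494 UMIs or 37.8 CPM in the oil-labelled library and 1792 UMIs or 29.5 CPM in the tamoxifen-labelled library, a log2 ratio of -0.35 (-0.44 to -0.27). Lss (chromosome 10, 76531588 to 76557138), which closes the ring to lanosterol, had 466 UMIs or 7.06 CPM and 407 UMIs or 6.71 CPM. Its log2 ratio of -0.073 (-0.27 to 0.12) was close to the median of all genes, and a difference was not detectable at this depth.

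Both members known to bind tamoxifen act late, on the sterol ring. Ebp (chromosome X, 8185329 to 8193512) had 5545 UMIs or 84.0 CPM in the oil-labelled library and 3908 UMIs or 64.4 CPM in the tamoxifen-labelled library, a log2 ratio of -0.38 (-0.44 to -0.32), and 6.56% of measured genes were as low or lower. Dhcr7 (chromosome 7, 143823145 to 143848410), which reduces dehydrocholesterol to cholesterol, had 750 UMIs or 11.4 CPM and 596 UMIs or 9.83 CPM, with a log2 ratio of -0.21 (-0.37 to -0.052). Insig1 (chromosome 5, 28071363 to 28078662), the feedback anchor of SCAP and itself a target of SREBP2, had 627 UMIs or 9.49 CPM and 501 UMIs or 8.26 CPM, with a log2 ratio of -0.20 (-0.37 to -0.029). Of measured genes, 23.7% had a ratio as low as that of Dhcr7 or lower, and 24.8% as low as that of Insig1.

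The other enzymes of the route were read from a list of 14. Of these, 12 were lower in the tamoxifen-labelled library, 10 of them with an interval below 0. Past the lower limit were 3 (1, Cyp51, under each of the 3 other scalings). The median log2 ratio of the 14 was -0.19. Of all measured genes, 38.3% were higher and 10.7% were past the lower limit, or 5.50% to 6.36% under those scalings. The share of all genes with an interval below 0 was not counted. Cyp51, the lanosterol demethylase, had 23.6 and 17.3 CPM with a log2 ratio of -0.45 (-0.56 to -0.33). Pmvk, a kinase of the mevalonate steps, had 46.5 and 36.8 CPM with a log2 ratio of -0.34 (-0.42 to -0.26), and Hsd17b7, a reductase of late sterols, had 6.07 and 4.76 CPM with -0.35 (-0.57 to -0.13), which turned to 0.021 with the stricter cell filter. Fdft1, the squalene synthase (0.021, -0.072 to 0.11), and Tm7sf2, a sterol reductase (0.16, -0.22 to 0.55), had log2 ratios above 0 with intervals that include 0. Over all 21 enzymes, the 7 members that are enzymes included, 19 were lower (18 with the totals that leave out mitochondrial and ribosomal protein genes), 16 had an interval below 0 and 0 had one above, with a median of -0.23.

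Of 6 measured regulators of SREBP, 3 were higher and 3 lower (0 higher at the same phase shares in both libraries), 0 passed the limit in either direction, and the median log2 ratio was -0.050, or 0.016 with TMM. Srebf2, which encodes SREBP2, had 51.2 CPM in the oil-labelled library and 51.7 CPM in the tamoxifen-labelled library, a log2 ratio of 0.016 (-0.055 to 0.086), or -0.040 at those phase shares. The lowest was Srebf1, the relative that acts more on fatty acid genes, at -0.26 (-0.35 to -0.17), and the highest was Mbtps2, a protease that releases SREBP, at 0.062 (-0.062 to 0.19).

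Among 7 genes of sterol uptake and transport, the median log2 ratio was -0.086 and 1 passed the limit, downward, beside 10.7% of all measured genes. This was Tmem97, a partner of the lysosomal exporter NPC1, with 33.9 CPM in the oil-labelled library and 23.3 CPM in the tamoxifen-labelled library and a log2 ratio of -0.54 (-0.64 to -0.44). Npc1 lay on the other side, with 13.4 and 15.8 CPM and a log2 ratio of 0.23 (0.10 to 0.37), or 0.094 at the same phase shares in both libraries.

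Genes of sterol efflux and storage had a median log2 ratio of 0.070 over the 6 of 10 that were measured. Mylip, which encodes a ubiquitin ligase that limits sterol uptake, had 39.6 CPM in the oil-labelled library and 55.7 CPM in the tamoxifen-labelled library, a log2 ratio of 0.49 (0.42 to 0.57). The cholesterol exporter Abca1 had 8.89 and 11.6 CPM and a log2 ratio of 0.38 (0.22 to 0.55), and its relative Abcg1 had 25.5 and 29.8 CPM and 0.22 (0.13 to 0.32). Mylip and Abca1 were past the upper limit, and all 3 are known targets of LXR, the receptor for oxysterols. With the same shares of G1, S and G2M cells in both libraries the ratios were 0.26 for Mylip, 0.011 for Abca1 and 0.031 for Abcg1, so neither call past the limit was kept; with the stricter cell filter Mylip had 0.98 and Abcg1 0.57. The oxysterol enzymes Ch25h and Cyp7b1 had 0 UMIs in both libraries, which by a floor of 3 counts per library allows up to 0.0454 CPM in the oil-labelled library and 0.0495 CPM in the tamoxifen-labelled library.

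Fatty acid synthesis genes, which SREBP proteins also control, went both ways. Of 7 measured out of 10, 2 were past the limit downward and 1 upward, beside 10.7% and 6.79% of all measured genes. The median log2 ratio of the list was -0.071. Under the 3 other scalings, and at the same phase shares, Fasn alone was past it downward. Fasn, the fatty acid synthase, had 22.6 CPM in the oil-labelled library and 16.2 CPM in the tamoxifen-labelled library, a log2 ratio of -0.48 (-0.60 to -0.37). Acaca, which makes malonyl-CoA, had 10.7 and 8.41 CPM and -0.35 (-0.52 to -0.18). Scd2, a desaturase, had 89.0 and 120 CPM and 0.43 (0.38 to 0.48). Of 9 genes that use the isoprenoid products, 8 were lower (7 under the other scalings) with a median of -0.14. Pdss1, which builds the tail of ubiquinone, was the 1 past the limit, with 15.44 and 11.03 CPM and a log2 ratio of -0.49 (-0.63 to -0.34). Of all measured genes, 38.3% were higher and 10.7% were past the lower limit, so 1 of 9 past it is near the share over all genes.

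Receptors for estrogen, the drug targets of tamoxifen in breast tissue, were near 0. Esr1 had 20 and 15 UMIs, Esr2 0 and 1, and Gper1 5 and 1.

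**Figure D2:**
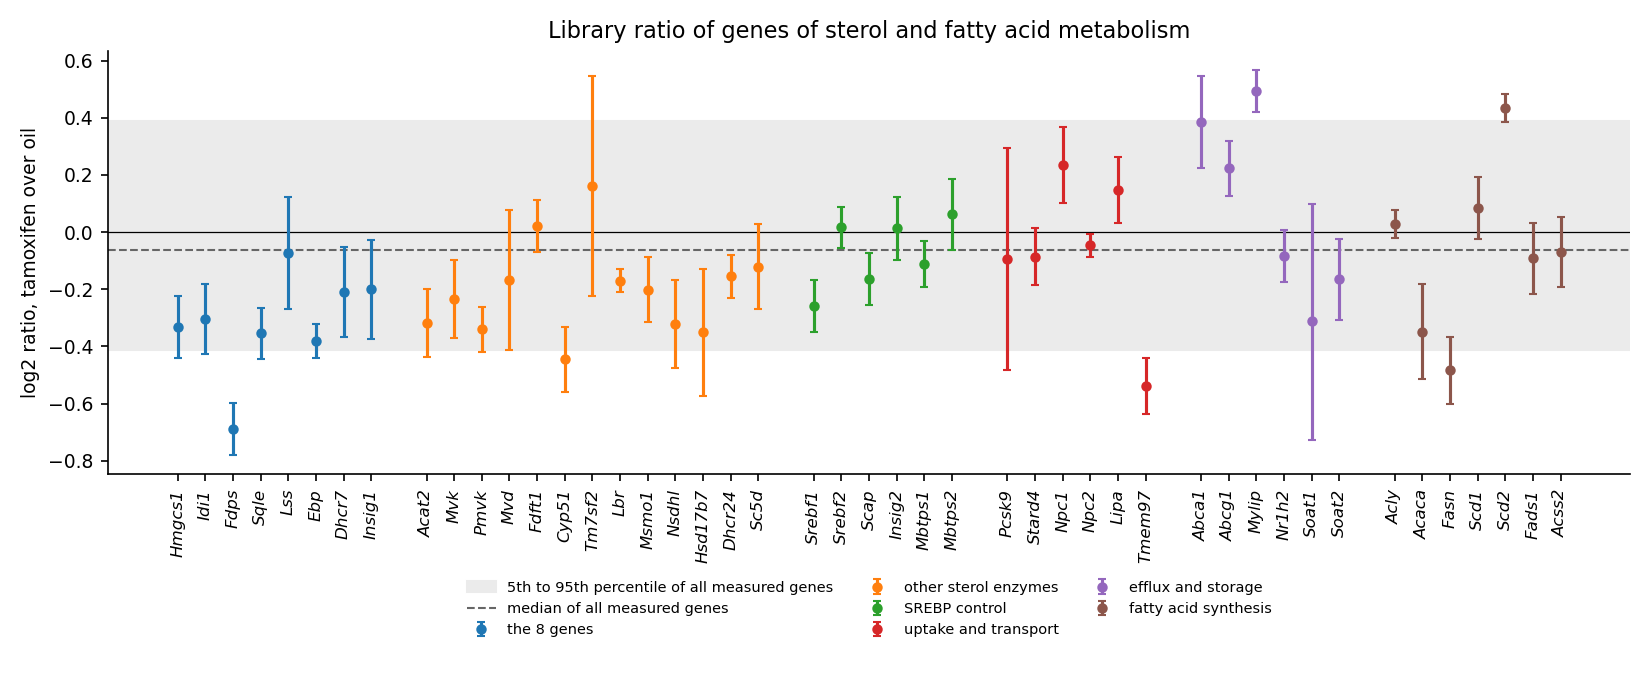
Log2 ratio, tamoxifen over oil, for measured genes of 6 lists apart from those not reported here, with exact 95% counting intervals as bars. The dashed line is the median of all 10527 measured genes (-0.063) and the grey band runs from their 5th to their 95th percentile (-0.41 to 0.39); Fdps, Cyp51, Fasn and Tmem97 lie below the band and Scd2 and Mylip above it.

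Other measures differed between the libraries along with the sterol genes. By scores of phase genes in cells thinned to 3000 UMIs, 45.6% of cells in the oil-labelled library and 60.2% in the tamoxifen-labelled library were called G1, 19.9% and 13.4% S, and 34.5% and 26.4% G2M. Ribosomal protein genes took 24.3% and 28.0% of UMIs. Of all measured genes, 38.3% were higher in the tamoxifen-labelled library. Of 12 measured interferon-stimulated genes 11 were higher in the tamoxifen-labelled library (12 under the other scalings), and the summed level of the list was 204 and 399 CPM. Of 10 measured mast cell genes 9 were lower, with a sum of 2995 and 2763 CPM. Of 12 erythroid genes 5 were higher (9 under the other scalings), with a sum of 8695 and 10055 CPM. The part of these shifts in the summed level of the sterol genes was not tested. The level was read within bands by phase and by the mast, erythroid and interferon lists, but not by ribosomal share.

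The lower level of the sterol genes was also read band by band. Cells were split into 3 bands by called phase and, over both libraries together, by UMIs per cell, by mitochondrial share and by the UMIs of the mast, erythroid and interferon lists. The summed level was lower in the tamoxifen-labelled library in 18 of these 18 bands, all 18 intervals lay below 0, and the log2 ratio ranged from -0.47 in cells with few erythroid UMIs to -0.27 in those with many. Bands of 1 division hold the same cells as those of another, and cells are not replicates. Many cells lie near a limit between bands, for example 2899 of 13310 within 10% of one for UMIs per cell and 8092 for the mitochondrial share. For the interferon list the limits were 0 and 1 UMIs in thinned cells, and 10008 of 12457 cells lay at one. Its bands thus match cells of both libraries only coarsely.

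Fdps was lower in 18 of 18 bands (log2 ratio -0.89 to -0.38), as were Sqle (-0.45 to -0.24) and Ebp (-0.49 to -0.27), each with all 18 intervals below 0. Hmgcs1 was lower in 18 bands (-0.59 to -0.11), with 14 intervals below 0. Idi1 was lower in 17 (-0.66 to 0.0079), with 15 intervals below 0. Dhcr7 and Insig1 were each lower in 17 bands but had only 4 and 3 intervals below 0, and Lss was lower in 11 and higher in 7 with 0 intervals on either side of 0.

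**Figure D3:**
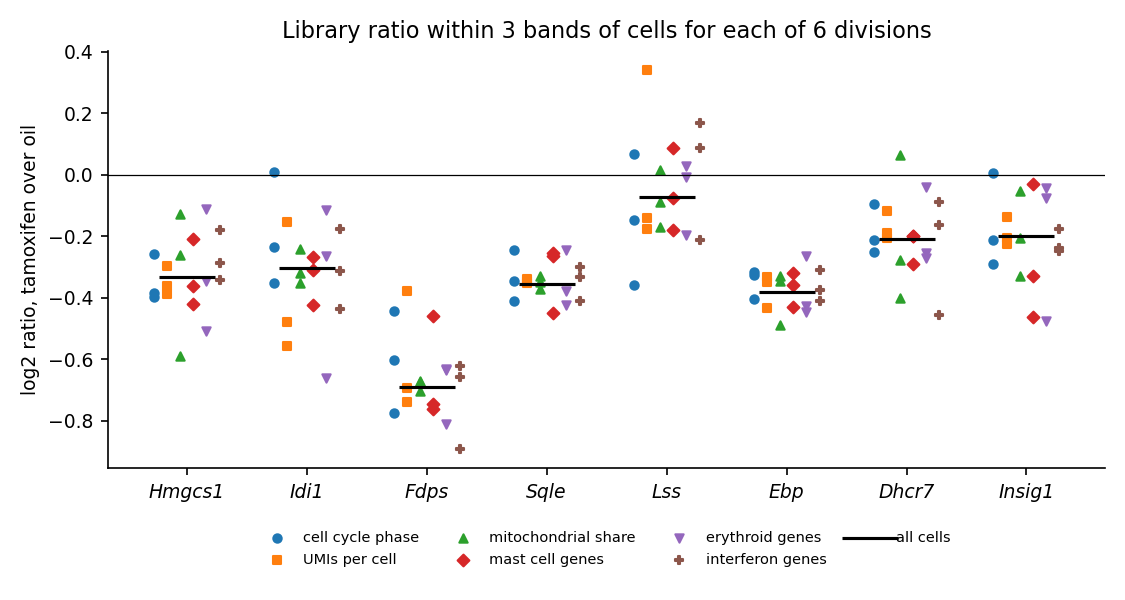
Log2 ratio, tamoxifen over oil, for each gene within 18 bands of cells, 3 for each of 6 divisions (markers), with the ratio over all cells as a black line. Every band of Fdps, Sqle, Ebp and Hmgcs1 lies below 0, whereas bands of Lss lie on both sides of 0.

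In cells called G1 the summed level was 213 CPM in the oil-labelled library and 164 CPM in the tamoxifen-labelled library, a log2 ratio of -0.37 (-0.43 to -0.31). In cells called S it was 247 and 203 CPM, a log2 ratio of -0.29 (-0.36 to -0.21), and in cells called G2M 243 and 186 CPM, a log2 ratio of -0.39 (-0.44 to -0.33). The library difference was thus found in each phase, and within each library the sum was higher in S than in G1, with log2 ratios of S over G1 of 0.22 (0.15 to 0.28) and 0.30 (0.23 to 0.38).

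The genes differed in how they followed the phases. Idi1 was higher in S than in G1 by log2 ratios of 0.89 (0.66 to 1.13) in the oil-labelled library and 1.26 (1.01 to 1.503) in the tamoxifen-labelled library, and in S it had 24.1 CPM in the oil-labelled and 24.2 CPM in the tamoxifen-labelled library. Fdps was also higher in S than in G1, by 0.47 (0.31 to 0.62) and 0.63 (0.44 to 0.81), and Ebp by 0.22 (0.12 to 0.33) and 0.31 (0.19 to 0.44). Hmgcs1 ran the other way, with log2 ratios of S over G1 of -0.55 (-0.76 to -0.35) and -0.41 (-0.66 to -0.17). Idi1 and Hmgcs1, steps of 1 route, thus had opposite orders of S and G1 in both libraries. The bands by UMIs per cell held a like contrast. From few to many UMIs, Hmgcs1 went from 30.3 to 21.8 CPM in the oil-labelled library and from 23.6 to 16.6 in the tamoxifen-labelled library. Idi1 went from 12.6 to 21.1 CPM and from 8.58 to 19.0 CPM. Phase and UMIs per cell were not separated.

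**Figure D4:**
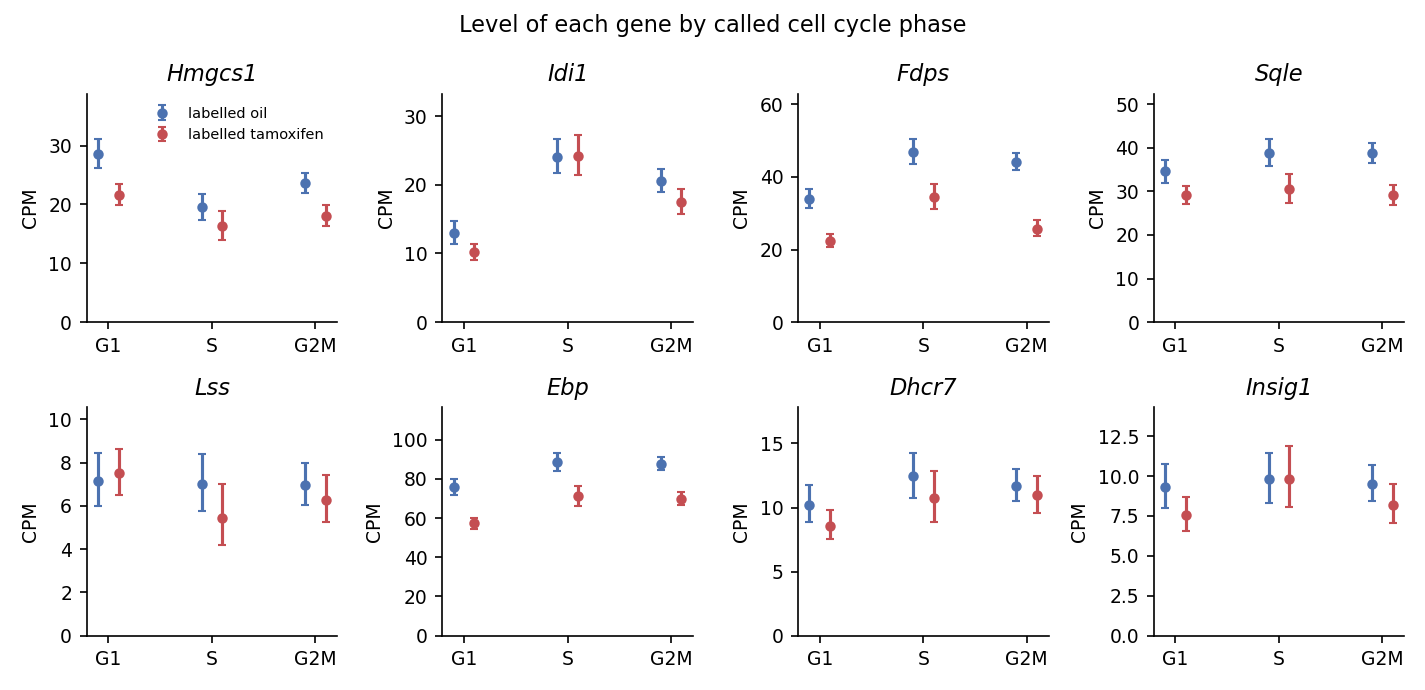
Level of each gene in CPM (linear axes from 0) in cells called G1, S and G2M, in the oil-labelled library (blue) and the tamoxifen-labelled library (red), with exact 95% Poisson intervals. Idi1 and Fdps are lowest in G1 in both libraries and Hmgcs1 is highest there.

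Across the mast and erythroid bands the genes also separated. Between cells with many and with few mast UMIs, the log2 ratio of Hmgcs1 was 0.67 (0.49 to 0.84) in the oil-labelled library and 0.51 (0.31 to 0.72) in the tamoxifen-labelled library. Idi1 was lower in cells with many mast UMIs, at -0.69 (-0.92 to -0.46) and -0.81 (-1.09 to -0.53). Between cells with many and with few erythroid UMIs, Fdps had log2 ratios of 0.55 (0.41 to 0.70) and 0.73 (0.55 to 0.92) and Idi1 of 0.37 (0.15 to 0.58) and 0.91 (0.66 to 1.16). The mast and erythroid bands were not separated from phase or from UMIs per cell.

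Cells with a UMI of the 8 genes were also fewer. Ebp had a mean of 0.242 and 0.190 UMIs per thinned cell. Its variance over the mean, 1 for counting error alone, was 1.01 in both libraries, so its share follows largely from the mean. For Hmgcs1 this value was 1.22 and 1.11, and for the 8 genes together 1.24 and 1.17, so their shares follow the mean less closely. At these low counts a share cannot tell fewer expressing cells from less RNA in each cell. In cells thinned to 3000 UMIs each, 46.2% of 6330 cells (44.9 to 47.4, exact Clopper-Pearson) in the oil-labelled library and 38.6% of 6127 cells (37.4 to 39.8) in the tamoxifen-labelled library held at least 1 UMI of the 8 genes; 508 and 345 shallower cells were left out. For Ebp the shares were 21.3% and 17.3%, for Fdps 10.4% and 6.54%, for Sqle 10.1% and 7.57% and for Idi1 5.21% and 3.61%. The shares of Hmgcs1 (6.87% and 6.12%), Dhcr7 (2.97% and 2.74%), Insig1 (2.69% and 2.46%) and Lss (2.23% and 1.99%) had overlapping intervals. Without thinning, 75.5% and 68.3% of cells held a UMI of the 8 genes, at medians of 8622.5 and 8209.5 UMIs per cell. All cell types make sterols, so no cell type lacking these genes was at hand to give the level of free RNA.

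Correlations among the 8 genes from cell to cell were weak. Over the 28 pairs, Pearson's r across thinned cells ran from -0.0089 to 0.083 in the oil-labelled library (median 0.018) and from -0.014 to 0.060 in the tamoxifen-labelled library (median 0.011), on counts in which most cells held 0 UMIs of a given gene. Among the 10 genes most like the sum of the 8, ranked by the smaller r of both libraries out of 6078 genes, were Lmna, Tagln2, Tuba1a, Crip2, Myadm, Dut, Hsp90aa1 and Ezr. The r of Lmna was 0.15 and 0.13, and correlations this weak in sparse counts are given as a description only.

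Kit, by which the cells were sorted, had 171 CPM in the oil-labelled library and 232 CPM in the tamoxifen-labelled library. Of a list of 6 leukemia and progenitor markers, Kit included, 5 were measured, 3 higher and 2 lower in the tamoxifen-labelled library. Cd34, also of that list, was under the minimum for measured genes, with 5 and 15 UMIs. Lists of other cell types were near 0. The T and NK list held 29 and 42 UMIs in all, with Cd3g, Cd4, Cd8a and Klrb1c at 0 in both, the B cell list 14 and 13, the neutrophil list 21 and 16, with Ly6g, S100a8 and Retnlg at 0, and the endothelial and stromal list 18 and 32. The macrophage and dendritic list held 480 and 445 UMIs, or 7.27 and 7.34 CPM.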

How the data were processed

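The authors deposited, per library, unnormalized UMI counts per gene and cell, made with Cell Ranger 3.0.2 on mm10 from 3′ reads of the 10x Chromium V3 kit. Kept were cells in which 500 genes or more were detected and mitochondrial UMIs made up 10% or less, 6838 of 7774 barcodes (66045700 UMIs) in the oil-labelled library and 6472 of 7311 (60661486 UMIs) in the tamoxifen-labelled library. Both libraries shared 14 barcodes. Scrublet called 0.0731% and 0% of cells, so it had not worked, and no doublets were removed. Counts were summed over cells. CPM have exact Poisson intervals and ratios exact conditional binomial intervals, whose code was tested on simulated data. Limits of 0.32 on the log2 scale describe size and are no test. Members and lists were chosen with earlier results of these data known. Named were all members, list genes past that limit or else the extremes of a list, and the 10 genes most like the members; Fdft1, Tm7sf2, Srebf2, Npc1, Abcg1, Kit and genes at or near 0 were chosen after their values were seen, and some list genes are not reported here. Positions are from GENCODE on GRCm38. Scalings used edgeR 4.0.16 (TMM) and DESeq2 1.42.0 (median ratio) on R 4.3.3, and the rest Python 3.11.15 with scanpy 1.11.5, scipy 1.17.1 and numpy 2.4.6.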

Additional observations from a re-analysis of the deposited data

How the results depend on the processing

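No paired analysis was possible because a group is a single library, which also cannot be left out. The log2 ratio of the summed level was -0.44 with a stricter cell filter (1000 genes or more, 5% mitochondrial UMIs or less), -0.32 with TMM, -0.32 with median-ratio scaling and -0.31 with totals without mitochondrial and ribosomal protein genes; the other 6 alternatives moved it by less than its counting interval. Members past the lower limit, 4 in the main result, numbered 1 under each of those 3 scalings, 7 at a fold of 1.1 and 1 at 1.5. Genes past the lower limit, 1122 in the main result, numbered 657 with TMM, 670 with median ratio, 579 with the reduced totals, 3762 at a fold of 1.1 and 134 at 1.5. Genes past the upper limit, 715 in the main result, numbered 1086 with the reduced totals, 1291 with a minimum of 20 UMIs, 415 with 500, 1973 at a fold of 1.1 and 220 at 1.5. The share of cells with a UMI of any member differed by -9.85 points when thinned to 5000 UMIs and by -7.58 at 3000. For single members, 10 of 16 such differences, at 5000 UMIs or without thinning, lay beyond the counting error of the one at 3000. Among ratios whose main interval lay off 0, signs turned with the stricter cell filter for Dhcr7 (0.28), Hsd17b7 (0.021), Mbtps1 (0.015), Lipa (-0.073) and Ggps1 (-0.089), and for Npc2 with TMM (0.019), median ratio (0.017) and the reduced totals (0.034). Apart from the scaling itself, the cause was not tested. Of 80 ratios of single members under alternatives 72 stayed within the main counting interval and 8 moved beyond it; 4 changed sign, 3 of them of Lss, whose main interval includes 0, and 1 of Dhcr7, and Fdps stayed between -0.84 and -0.61. With 1 library per group, the spread between mice or between libraries is unknown, and Lss, Insig1 and Dhcr7 rest on the fewest UMIs of the 8. The median over the 21 enzymes ran from -0.23 to -0.15 over its 10 alternatives.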

Other observations

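In the 936 and 839 barcodes left out by the cell filter, the sum was again lower in the tamoxifen-labelled library, but the genes were ordered otherwise. The summed level of the 8 genes in them was 203 CPM (190 to 218) in the oil-labelled library and 152 CPM (140 to 164) in the tamoxifen-labelled library, from 853 and 663 UMIs, a log2 ratio of -0.42 (-0.57 to -0.27). Fdps was again the lowest, at -1.11 (-1.54 to -0.69), followed by Hmgcs1 at -0.62 (-1.06 to -0.18), and the intervals of the other 6 genes included 0. Among these 6 was Ebp, the second lowest in the kept cells, at -0.19 (-0.43 to 0.057).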
